A study of Mus musculus with 34 samples.

Results

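Expression of 9 genes of megakaryocytes and platelets was followed across bone marrow-derived macrophages of 4 mouse genotypes: Itga2b, Itgb3, Gp1ba, Gp9, Gp6, Treml1, Pf4, Ppbp and Vwf. They were taken by gene symbol, and all 9 members were found among the 52550 genes of the main count table and again among the 25498 genes of a second table. The cultures came from whole marrow of mice aged 10 to 14 weeks and were grown with the macrophage growth factor M-CSF at 10 ng/ml over 6 days. After 24 h of rest they received low-density lipoprotein (LDL, the main cholesterol carrier of plasma) at 200 mg/dL, or vehicle, for 24 h. WT mice carried Vav-Cre alone, Dnmt3aKO mice Dnmt3afl/fl with Vav-Cre, Tet2KO mice Tet2fl/fl with Vav-Cre, and Jak2VF mice the allele named Jak2V617F/WT in the labels with Vav-Cre. Every group, WT included, thus carried the Vav-Cre recombinase, which is active across blood cells and not in macrophages alone. The main set held 24 libraries, 3 for each genotype with each treatment, and a separate set named batch 1 held 10 libraries of WT and Tet2KO only. Nothing in the labels ties a group's replicates to separate animals, so p-values measure the spread between these libraries, which may be technical.

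Platelets are fragments shed by megakaryocytes, large marrow cells whose growth depends on cytokine signals passed on by the kinase Jak2. Itga2b and Itgb3 encode the chains of the integrin that binds fibrinogen and lets platelets aggregate. Gp1ba and Gp9 encode subunits of the receptor that captures platelets on von Willebrand factor, the large plasma protein encoded by Vwf, and Gp6 encodes the platelet receptor for collagen. Treml1 is a receptor stored in platelet granules, and Pf4 and Ppbp are chemokines (CXCL4 and CXCL7) released from those granules. The Jak2 V617F change keeps the kinase active and is known from myeloproliferative neoplasms, in which megakaryocytes and platelets can be overproduced. Outside the lineage, Itgb3 also pairs with Itgav in macrophages and osteoclasts, Pf4 is also made by mononuclear phagocytes, and Vwf is also made by endothelium.

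Promoters of 5 members are shown as examples. Itga2b, Gp1ba and Gp9 were higher in vehicle-treated Jak2VF cultures, as was Gp6, whose promoter is not shown. Ppbp rose with LDL in every genotype, and Pf4, its neighbour on chromosome 5, in WT and Tet2KO. RefSeq promoters (build GRCm38.p6, 250 bases before the start and 50 after it) were matched for 7 of the 9 members. Each is written from 5′ to 3′ on the gene's strand, and capitals mark GATA motifs (AGATAA on either strand, also with T as its first letter, G as its last, or both) and the TATA box letters TATAAA.
Itga2b, chr11:102469834-102470133, minus strand: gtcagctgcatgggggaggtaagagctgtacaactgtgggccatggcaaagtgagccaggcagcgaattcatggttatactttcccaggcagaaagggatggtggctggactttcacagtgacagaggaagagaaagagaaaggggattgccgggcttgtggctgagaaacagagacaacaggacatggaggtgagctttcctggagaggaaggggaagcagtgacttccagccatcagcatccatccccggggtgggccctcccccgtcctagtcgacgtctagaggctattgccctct
Gp1ba, chr11:70638872-70639171, plus strand: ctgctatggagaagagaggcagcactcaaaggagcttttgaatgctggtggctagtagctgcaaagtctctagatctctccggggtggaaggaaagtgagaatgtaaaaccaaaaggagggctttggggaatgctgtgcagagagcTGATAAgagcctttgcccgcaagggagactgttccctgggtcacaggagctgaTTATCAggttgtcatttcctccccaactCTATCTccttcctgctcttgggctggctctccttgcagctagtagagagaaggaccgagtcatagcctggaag
Gp9, chr6:87777820-87778119, plus strand: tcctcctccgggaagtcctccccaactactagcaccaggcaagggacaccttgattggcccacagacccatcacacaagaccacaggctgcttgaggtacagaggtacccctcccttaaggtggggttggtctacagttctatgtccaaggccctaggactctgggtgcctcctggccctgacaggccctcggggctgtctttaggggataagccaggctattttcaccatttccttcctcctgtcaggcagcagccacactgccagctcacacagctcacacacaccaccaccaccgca
Pf4, chr5:90772185-90772484, plus strand: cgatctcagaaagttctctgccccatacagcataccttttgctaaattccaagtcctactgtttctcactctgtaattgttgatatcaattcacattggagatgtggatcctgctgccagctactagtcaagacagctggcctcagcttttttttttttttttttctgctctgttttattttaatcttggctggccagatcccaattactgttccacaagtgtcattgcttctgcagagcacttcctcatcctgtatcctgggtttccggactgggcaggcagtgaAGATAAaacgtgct
Ppbp, chr5:90768268-90768567, plus strand: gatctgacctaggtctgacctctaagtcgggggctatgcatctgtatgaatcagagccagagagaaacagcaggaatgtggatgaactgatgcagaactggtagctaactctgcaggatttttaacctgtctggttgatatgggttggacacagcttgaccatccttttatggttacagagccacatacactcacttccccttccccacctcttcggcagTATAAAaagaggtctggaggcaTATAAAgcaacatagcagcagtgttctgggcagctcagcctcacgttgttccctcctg

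A GATA motif, the letters bound by Gata1 and its relatives, was found in 3 of the 7 promoters (Gp1ba with 3 matches, Gp6 and Pf4 with 1 each), beside 29.8% of 32851 promoters of the same length. ETS letters (CAGGAA on either strand, also with G as its first letter, C as its second, or both), as bound by Fli1, were in 6 of 7 beside 61.6% of all. The STAT5 letters TTCNNNGAA, searched because Jak2 signals through Stat5, were in 0 of 7 beside 8.3% of all, which says only that they are not in these windows. TATAAA was in 1 of 7, with both matches in Ppbp (first bases at -30 and -8 from the start), beside 13.6% of all promoters. The genes of Ppbp (chr5:90768518-90770063) and Pf4 (chr5:90772435-90773383), both on the plus strand, lie 2371 bases apart in the GENCODE vM21 annotation of GRCm38. No member shares exon bases with another annotated gene.

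The main libraries held 24105237 to 43904761 counts each, and those of batch 1 held 15171143 to 44449473. Levels are given as CPM, a gene's counts scaled to 1 fixed total per library, which compares libraries and not genes of unequal length. The labelled cell type was checked on 8 macrophage markers, whose summed level was 19673 to 26285 CPM in vehicle-treated Jak2VF libraries and 22803 to 33388 CPM in the other vehicle libraries. The cultures also held stromal transcripts. A list of 8 stromal markers summed to 12589 to 16832 CPM in vehicle-treated Jak2VF libraries and 10843 to 13800 CPM in the other vehicle libraries. Dnmt3a was at 27.6 to 36.6 CPM in Dnmt3aKO and 39.4 to 71.2 CPM in WT. Tet2 was at 19.3 to 40.4 CPM in Tet2KO and 15.0 to 32.2 CPM in WT, and Jak2 was at 54.6 to 74.7 CPM in Jak2VF and 71.3 to 97.7 CPM in WT; counts over a whole gene do not show a deleted exon or a changed base, so these levels do not check either label. The LDL libraries WT replicate 3 and Tet2KO replicate 3 stood apart in Gfap, an astrocyte gene, with 2.72 and 4.26 CPM against lowest values of 0.111 and 0.174 CPM in their groups.

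The members differed widely in level. Per kilobase of exon, the mean over the main libraries was 1233 CPM for Pf4 and 93.7 CPM for Ppbp, followed by Itgb3 at 5.80, Treml1 at 3.06, Itga2b at 2.12, Gp9 at 1.13, Vwf at 0.955, Gp1ba at 0.717 and Gp6 at 0.0791 CPM per kilobase. The chemokines were thus far above the receptors in these cultures. By mean CPM, Pf4 stood at percentile 99.47 of the genes tested and Gp6 at percentile 17.57. Between the highest and the lowest library Ppbp spanned 14.3-fold and Gp9 9.36-fold, against 2.31-fold for Itgb3 and 2.40-fold for Vwf. Gp6 rested on 4 to 39 counts per library, so its values carry the largest counting error among the members.

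**Figure D1:**
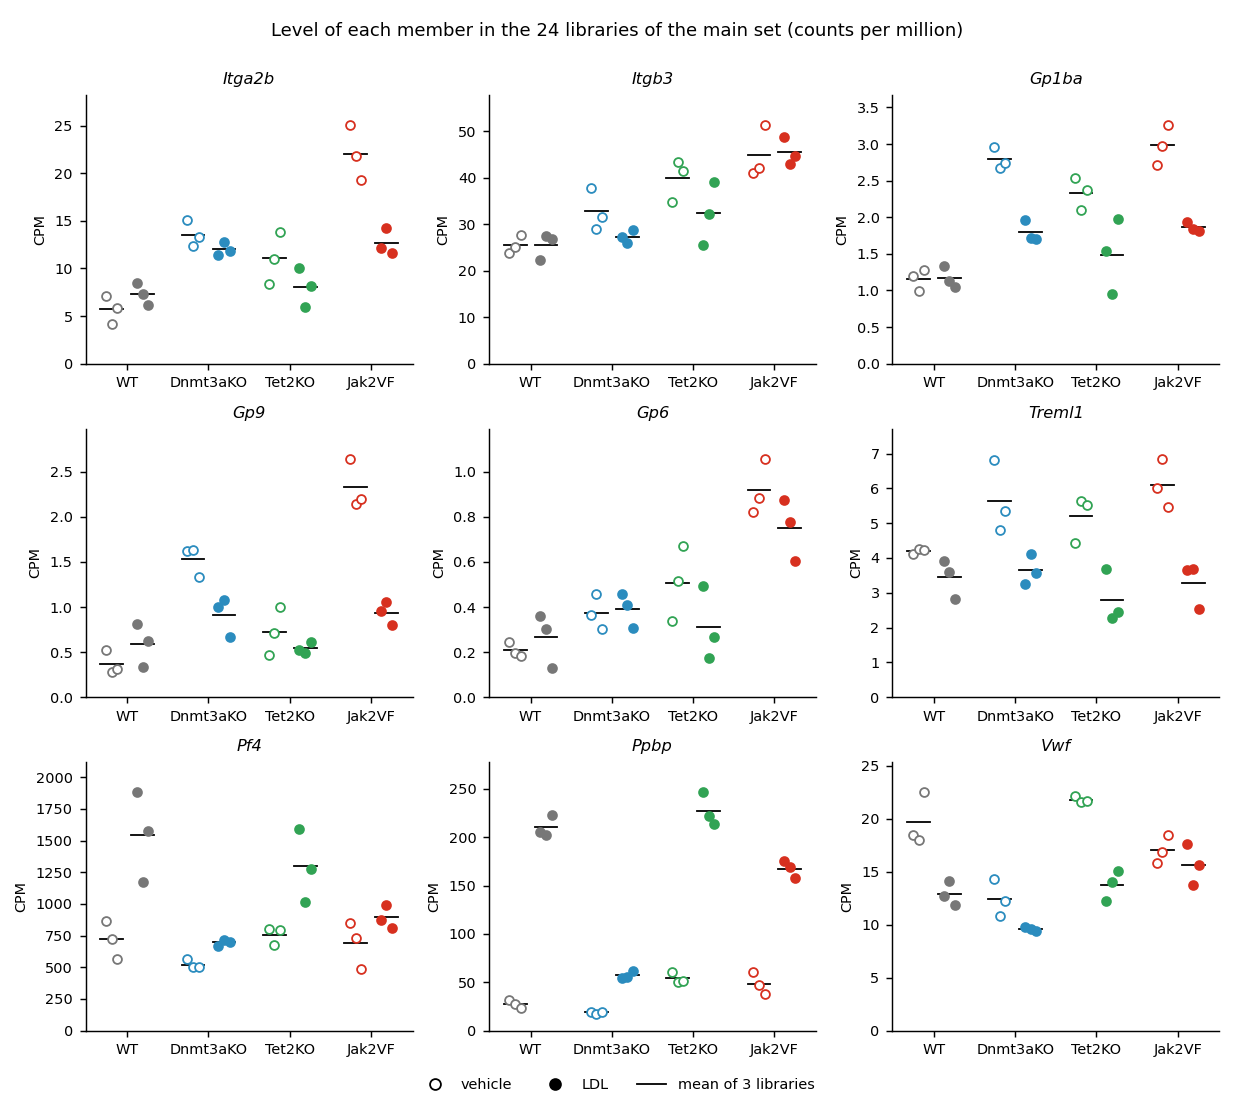
Level of each member in every main library (vertical axes, CPM, each from 0) by genotype and treatment, with open points for vehicle, filled points for LDL and a line at each group mean. The 3 vehicle-treated Jak2VF libraries lie above all other libraries for Itga2b and Gp9, and LDL lifts every library of Ppbp in all 4 genotypes.

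In vehicle, 6 of the 9 members were higher in Jak2VF than in the mean of WT, Dnmt3aKO and Tet2KO (edgeR quasi-likelihood test, Benjamini-Hochberg adjusted p under 0.05), and 0 were lower. Of all 19444 genes tested, 9.36% were higher and 9.78% lower. The 6 were both fibrinogen receptor chains, Gp1ba, Gp9, Gp6 and Ppbp, and each was called in all 12 fits that left out 1 library. The median log2 fold change over the 9 members was 0.60, beside 0.01 over all genes. The members, and the lists used below, were chosen with earlier results of these data known. The shares and medians over all genes are therefore a description and not a test. Since these are bulk cultures, more cells of a type and more RNA per cell cannot be told apart.

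Itga2b, the chain that is largely specific to the platelet integrin, was at 25.1, 21.8 and 19.3 CPM in the vehicle-treated Jak2VF libraries. It was at 7.13, 4.21 and 5.85 CPM in WT, 15.1, 12.3 and 13.3 CPM in Dnmt3aKO, and 8.40, 11.0 and 13.8 CPM in Tet2KO. Every Jak2VF library lay above every other vehicle library. The log2 fold change was 1.21 (SE 0.15, adjusted p = 1.1e-05) against the mean of the others, and an exact two-sided permutation of the 3 Jak2VF and 9 other libraries gave an unadjusted p of 0.0136, where the smallest possible is 0.00455. Taken singly, the log2 fold change of Itga2b was 1.94 against WT (SE 0.20, adjusted p = 3.2e-06), 0.99 against Tet2KO (adjusted p = 0.00165) and 0.70 against Dnmt3aKO (adjusted p = 0.0127). The Dnmt3aKO difference was not called without Jak2VF vehicle replicate 1 (adjusted p = 0.0621) or Dnmt3aKO vehicle replicate 2 (adjusted p = 0.0527).

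Its partner Itgb3, the chain shared with the Itgav integrin, moved less. Vehicle levels were 41.1, 42.1 and 51.3 CPM in Jak2VF, 23.9, 25.2 and 27.7 CPM in WT, 37.8, 28.9 and 31.6 CPM in Dnmt3aKO, and 34.8, 43.5 and 41.6 CPM in Tet2KO. The Jak2VF libraries lay above WT and Dnmt3aKO and overlapped Tet2KO. Against the mean of the others the log2 fold change was 0.48 (SE 0.11, adjusted p = 0.00385; exact permutation unadjusted p = 0.0455). Against WT alone it was 0.81 (adjusted p = 5.9e-04).

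Within the von Willebrand factor receptor, Gp9 had the largest log2 fold change of the members. Gp9 was at 2.65, 2.14 and 2.20 CPM in vehicle-treated Jak2VF, 0.519, 0.283 and 0.315 CPM in WT, 1.62, 1.63 and 1.34 CPM in Dnmt3aKO, and 0.465, 0.714 and 1.00 CPM in Tet2KO. No other library reached the Jak2VF values, and the vehicle-treated WT libraries held only 10 to 19 counts of Gp9 each. The log2 fold change of Gp9 was 1.64 (SE 0.20, adjusted p = 1.3e-05; exact permutation unadjusted p = 0.0136) against the mean of the others and 2.64 (SE 0.29, adjusted p = 7.4e-06) against WT. Gp9 was also higher than in Tet2KO (1.67, adjusted p = 2.8e-04), while the difference from Dnmt3aKO was 0.61 (adjusted p = 0.0946).

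The ligand-binding subunit Gp1ba was at 2.72, 2.97 and 3.26 CPM in vehicle-treated Jak2VF and 1.20, 0.990 and 1.29 CPM in WT. It was at 2.95, 2.68 and 2.75 CPM in Dnmt3aKO and 2.53, 2.10 and 2.37 CPM in Tet2KO. Jak2VF and Dnmt3aKO overlapped, and WT stood below every other genotype. The log2 fold change was 0.60 against the mean of the others (SE 0.14, adjusted p = 0.00424), although the exact permutation gave an unadjusted p of 0.109, and 1.36 against WT (adjusted p = 5.8e-05). The difference in Gp1ba from Dnmt3aKO was 0.09 (adjusted p = 0.742).

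The collagen receptor Gp6 was at 0.821, 0.884 and 1.06 CPM in vehicle-treated Jak2VF, 0.246, 0.198 and 0.184 CPM in WT, 0.363, 0.459 and 0.302 CPM in Dnmt3aKO, and 0.336, 0.516 and 0.670 CPM in Tet2KO. All 3 Jak2VF libraries were above the 9 others. The log2 fold change of Gp6 was 1.42 (SE 0.25, adjusted p = 4.4e-04; exact permutation unadjusted p = 0.00455, the smallest possible). Against WT it was 2.12 (SE 0.35, adjusted p = 4.7e-04) and against Dnmt3aKO 1.29 (adjusted p = 0.00601). The difference in Gp6 from Tet2KO was not called by edgeR, except in the fit without Tet2KO vehicle replicate 3 (1.14, adjusted p = 0.0449).

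The granule receptor Treml1 was at 6.00, 6.85 and 5.46 CPM in vehicle-treated Jak2VF and at 4.12 to 4.27 CPM in WT, with Dnmt3aKO and Tet2KO at 4.44 to 6.80 CPM. Jak2VF overlapped Dnmt3aKO and Tet2KO, and the log2 fold change of 0.29 against the mean of the others did not pass (adjusted p = 0.153). Against WT alone it was 0.54 with an adjusted p of 0.0681 by edgeR and 0.038 by DESeq2.

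Of the chemokines, Ppbp was at 60.8, 46.7 and 37.8 CPM in vehicle-treated Jak2VF, 31.5, 27.9 and 23.5 CPM in WT, 19.6, 17.2 and 19.6 CPM in Dnmt3aKO, and 60.7, 50.8 and 51.2 CPM in Tet2KO. Jak2VF and Tet2KO overlapped, and both lay above WT and Dnmt3aKO. The log2 fold change of Ppbp was 0.67 against the mean of the others (SE 0.10, adjusted p = 1.3e-04; exact permutation unadjusted p = 0.15), 0.81 against WT (adjusted p = 4.5e-04) and 1.36 against Dnmt3aKO (adjusted p = 3.2e-07). The difference from WT was not called when those 2 groups alone were fitted (0.83, adjusted p = 0.05). Pf4 was at 846, 730 and 488 CPM in Jak2VF and 866, 724 and 567 CPM in WT, a log2 fold change of -0.06 against WT (adjusted p = 0.878) and 0.07 against the mean of the others (adjusted p = 0.785).

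Vwf, the ligand of the Gp1ba receptor, was at 15.8, 16.9 and 18.5 CPM in vehicle-treated Jak2VF, between 14.3, 10.8 and 12.2 CPM in Dnmt3aKO and 22.1, 21.6 and 21.7 CPM in Tet2KO. Against the mean of the others its log2 fold change was -0.03 (adjusted p = 0.824). It was higher than in Dnmt3aKO by 0.45 (adjusted p = 0.00833), and the value against Tet2KO was -0.35 (adjusted p = 0.0432), a call made in only 1 of 6 fits that left out 1 library (highest adjusted p = 0.206). The summed level of 9 endothelial markers was 23.5 to 26.7 CPM in vehicle-treated Jak2VF, 13.9 to 16.5 CPM in Dnmt3aKO, 25.5 to 31.1 CPM in Tet2KO and 19.3 to 21.2 CPM in WT. By group mean it was lowest and highest in the same genotypes as Vwf, but the order between differed. Vehicle-treated WT had Vwf at 18.0 to 22.5 CPM, overlapping Jak2VF, and an endothelial sum below every Jak2VF library. With LDL the sum of these markers was 26.8 to 27.9 CPM in Dnmt3aKO, above the vehicle range of that genotype, while Vwf was at 9.39 to 9.78 CPM there. Their part in the Vwf differences was not tested.

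**Figure D2:**
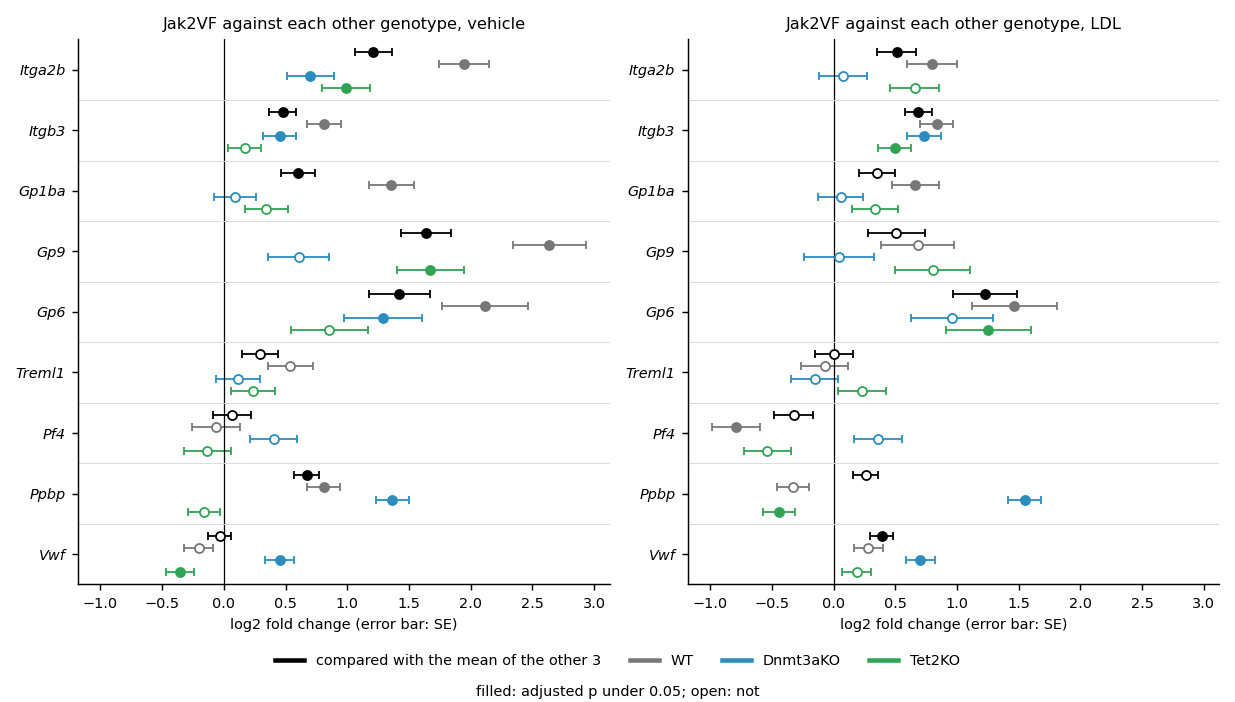
Log2 fold change (horizontal axis) of each member in Jak2VF against the mean of the other genotypes and against each one, in vehicle (left) and LDL (right), with SE as error bars and filled points for adjusted p under 0.05. In vehicle the points of Itga2b, Itgb3, Gp1ba, Gp9, Gp6 and Treml1 lie right of 0 in every comparison, not all of them filled. Gp9 against WT is the farthest at 2.64.

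Over all 8 groups, the order of the means (SD, n = 3) placed Itga2b in vehicle-treated Jak2VF first, at 22.0 ± 2.9 CPM, and its libraries did not overlap the next group, vehicle-treated Dnmt3aKO at 13.6 ± 1.4 CPM. Jak2VF with LDL followed at 12.7 ± 1.4 CPM, and from there down to vehicle-treated WT at 5.73 ± 1.46 CPM each group overlapped the next. Gp9 showed the same first groups, 2.33 ± 0.28 CPM in vehicle-treated Jak2VF, 1.53 ± 0.17 CPM in vehicle-treated Dnmt3aKO and 0.938 ± 0.133 CPM in LDL-treated Jak2VF, none overlapping, while the groups below overlapped their neighbours. Ppbp had another order, with LDL-treated Tet2KO at 227 ± 17 CPM and WT at 210.4 ± 11.3 CPM overlapping, then Jak2VF at 168 ± 9 CPM apart from both, and LDL-treated Dnmt3aKO at 57.2 ± 3.8 CPM among the vehicle levels of Tet2KO and Jak2VF.

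Counted by genotype in vehicle, 6 of 9 members were higher than in WT (4.29% of all genes higher, 5.26% lower) and 0 lower. Against Dnmt3aKO 5 were higher and 0 lower (9.19% and 9.99% of all genes), and 3 were higher without Dnmt3aKO vehicle replicate 2, where Itga2b and Itgb3 were lost (adjusted p = 0.0527 and 0.0963). Itgb3 was also lost without Dnmt3aKO vehicle replicate 3 (0.0795) or Jak2VF vehicle replicate 3 (0.0871). Against Tet2KO 2 were higher, Itga2b and Gp9, and 1 lower, Vwf (7.18% and 8.30% of all genes). These comparisons share the same Jak2VF libraries.

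With LDL in all cultures, 4 members were higher in Jak2VF than in the mean of the others and 0 lower, beside 6.52% of all genes higher and 5.91% lower; the members' median log2 fold change was 0.39 beside 0.00 over all genes. Itgb3 was at 48.9, 43.0 and 44.7 CPM in LDL-treated Jak2VF and at 22.2 to 39.2 CPM in the other LDL libraries, with no overlap, a log2 fold change of 0.69 (SE 0.11, adjusted p = 1.7e-04; exact permutation unadjusted p = 0.00455, the smallest possible). Gp6 was at 0.874, 0.778 and 0.605 CPM in Jak2VF and at 0.131 to 0.492 CPM in the others, again with no overlap, and its log2 fold change was 1.23 (SE 0.26, adjusted p = 0.00288; exact permutation unadjusted p = 0.00455). Both calls held in all 12 fits that left out 1 library.

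Vwf was at 17.6, 13.7 and 15.6 CPM in LDL-treated Jak2VF, above every Dnmt3aKO library (9.39 to 9.78 CPM) and overlapping WT and Tet2KO. Its log2 fold change of 0.39 (SE 0.09, adjusted p = 0.00733) was not called without Jak2VF LDL replicate 1 (adjusted p = 0.103). Itga2b was at 12.2, 14.3 and 11.6 CPM in Jak2VF, overlapping Dnmt3aKO at 11.4, 12.8 and 11.8 CPM. Its log2 fold change of 0.51 (SE 0.16, adjusted p = 0.0346) was called in 6 of 12 fits that left out 1 library, and was lost without any of the 3 Jak2VF LDL libraries, without Dnmt3aKO LDL replicate 1 or 3, or without WT LDL replicate 3 (highest adjusted p = 0.166). The exact permutation gave an unadjusted p of 0.0636 for Itga2b and 0.0455 for Vwf, and Itga2b was not called with the description's replicate number as a block (adjusted p = 0.0651). Gp9 at 0.51 (adjusted p = 0.173), Gp1ba at 0.35 (adjusted p = 0.129), Ppbp at 0.26 (adjusted p = 0.113), Pf4 at -0.32 (adjusted p = 0.212) and Treml1 at 0.00 (adjusted p = 0.993) did not pass.

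By genotype under LDL, 4 members were higher in Jak2VF than in WT (Itga2b, Itgb3, Gp1ba and Gp6) and 1, Pf4, was lower, beside 4.21% and 5.75% of all genes. Pf4 was at 876, 995 and 807 CPM in Jak2VF and at 1882, 1173 and 1579 CPM in WT, a log2 fold change of -0.79 (adjusted p = 0.0139) that was not called without WT LDL replicate 1 (adjusted p = 0.0943), Jak2VF LDL replicate 1 (0.0583) or Jak2VF LDL replicate 3 (0.0811). Of the higher calls, that of Itgb3 (0.83, adjusted p = 6.4e-04) held in all 6 fits that left out 1 library. Itga2b (0.80, adjusted p = 0.0158) was lost without WT LDL replicate 3 (adjusted p = 0.0718), 1 of the libraries with Gfap. Gp6 (1.47, adjusted p = 0.0116) was lost without that library (adjusted p = 0.0539) or Jak2VF LDL replicate 1 (adjusted p = 0.0547), and Gp1ba (0.66, adjusted p = 0.0308) was called in 2 of 6 such fits.

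Against Dnmt3aKO under LDL, Itgb3 (0.73, adjusted p = 5.7e-04), Ppbp (1.55, adjusted p = 3.8e-08) and Vwf (0.70, adjusted p = 2.0e-04) were higher in Jak2VF and 0 members were lower, beside 8.61% and 7.04% of all genes. Against Tet2KO under LDL, Gp6 (1.25, adjusted p = 0.0304) and Itgb3 (0.49, adjusted p = 0.0323) were higher and Ppbp (-0.44, adjusted p = 0.0462) was lower, beside 2.85% and 3.25% of all genes. None of these 3 Tet2KO calls was stable to leaving out 1 library, with 2, 1 and 0 of 6 fits calling Gp6, Itgb3 and Ppbp.

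The other genotypes also differed from WT in these genes. In vehicle-treated Dnmt3aKO, Itga2b (log2 fold change 1.24, adjusted p = 1.7e-04), Gp1ba (1.27, adjusted p = 4.8e-05) and Gp9 (2.03, adjusted p = 6.7e-05) were higher than in WT, and Ppbp (-0.55, adjusted p = 0.00764) and Vwf (-0.66, adjusted p = 4.7e-04) were lower, beside 5.58% of all genes higher and 5.51% lower. The call for Ppbp was lost without WT vehicle replicate 1 (adjusted p = 0.0508). In vehicle-treated Tet2KO, Itga2b (0.95, adjusted p = 0.00527), Itgb3 (0.64, adjusted p = 0.00533), Gp1ba (1.01, adjusted p = 0.00143) and Ppbp (0.97, adjusted p = 6.5e-05) were higher than in WT and 0 were lower, beside 2.76% and 2.72% of all genes. In the vehicle-treated cultures of the main set, Itga2b and Gp1ba were therefore higher than WT in each of the 3 altered genotypes, in comparisons that share the WT libraries.

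Under LDL the Dnmt3aKO cultures stood lowest in both chemokines. Ppbp was at 54.6, 55.6 and 61.6 CPM in Dnmt3aKO and at 205, 203 and 223 CPM in WT, a log2 fold change of -1.88 (adjusted p = 4.5e-09). Pf4 was at 670, 718 and 698 CPM in Dnmt3aKO, below every LDL-treated WT library (-1.15, adjusted p = 2.9e-04). Vwf was also lower (-0.42, adjusted p = 0.02), and Itga2b (0.72, adjusted p = 0.0181) and Gp1ba (0.60, adjusted p = 0.0357) were higher, beside 8.01% of all genes higher and 9.46% lower. Vwf and Gp1ba were each called in only 1 of 6 fits that left out 1 library, with adjusted p up to 0.0813 and 0.119, and Itga2b was lost without Dnmt3aKO LDL replicate 2 (0.057) or WT LDL replicate 3 (0.0875). In Tet2KO under LDL, 0 members were called against WT by edgeR and by DESeq2, beside 1.28% of all genes called higher and 1.48% lower by edgeR. At an unadjusted p under 0.05 by edgeR there was 1 member, a looser threshold at which those shares do not apply.

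LDL raised Ppbp in every genotype. In WT it went from 31.5, 27.9 and 23.5 CPM to 205, 203 and 223 CPM, a log2 fold change of 2.93 (SE 0.14, adjusted p = 7.2e-12). In Tet2KO the LDL libraries were at 247, 222 and 214 CPM (2.07, adjusted p = 7.7e-10), in Jak2VF at 176, 169 and 158 CPM (1.79, adjusted p = 4.8e-09), and in Dnmt3aKO at 54.6, 55.6 and 61.6 CPM (1.61, adjusted p = 2.2e-08). In each genotype the groups did not overlap.

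Pf4, the neighbour of Ppbp, rose with LDL in WT, from 866, 724 and 567 CPM to 1882, 1173 and 1579 CPM (log2 fold change 1.10, SE 0.19, adjusted p = 3.2e-04). In Tet2KO it went from 799, 675 and 791 CPM to 1590, 1016 and 1279 CPM (0.78, adjusted p = 0.00717), a call lost without Tet2KO LDL replicate 1 (adjusted p = 0.0558). In Jak2VF the value was 0.38 (adjusted p = 0.175) and in Dnmt3aKO 0.42 (adjusted p = 0.166; 3.1e-04 when the Dnmt3aKO libraries were fitted alone).

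Receptors of the group went down with LDL in several genotypes. In Jak2VF, Gp9 fell from 2.65, 2.14 and 2.20 CPM to 0.956, 1.06 and 0.797 CPM (log2 fold change -1.31, SE 0.26, adjusted p = 0.00117) and Itga2b from 25.1, 21.8 and 19.3 CPM to 12.2, 14.3 and 11.6 CPM (-0.80, adjusted p = 0.00595), with no overlap for either. Gp1ba (-0.68, adjusted p = 0.00918) and Treml1 (-0.89, adjusted p = 0.00166) fell as well. All 5 calls in Jak2VF, Ppbp included, held in the 6 fits that left out 1 library. Treml1 and Gp1ba also fell in Tet2KO (-0.89, adjusted p = 0.00234, and -0.67, adjusted p = 0.0148) and in Dnmt3aKO (-0.63, adjusted p = 0.0234, and -0.64, adjusted p = 0.0149), and neither was called in WT.

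Leaving out 1 library ended some of these receptor calls. In Tet2KO, Gp1ba was lost without LDL replicate 2 (adjusted p = 0.068) or vehicle replicate 1 (adjusted p = 0.0622). In Dnmt3aKO, Gp1ba was lost without LDL replicate 2 or 3 or vehicle replicate 1 (adjusted p up to 0.0763), and Treml1 without LDL replicate 1 or 3 or vehicle replicate 1 (adjusted p up to 0.165).

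Vwf fell with LDL in WT, from 18.5, 18.0 and 22.5 CPM to 12.7, 14.1 and 11.8 CPM (log2 fold change -0.61, adjusted p = 7.5e-04), and in Tet2KO, from 22.1, 21.6 and 21.7 CPM to 12.2, 14.0 and 15.0 CPM (-0.67, adjusted p = 3.2e-04). In Dnmt3aKO the value was -0.38 (adjusted p = 0.0353), called in only 1 of 6 fits that left out 1 library (highest adjusted p = 0.239). In Jak2VF it was -0.13 (adjusted p = 0.471). Itgb3 was called with LDL in none of the 4 genotypes by edgeR over the 24 libraries, and it fell in Tet2KO in fits without the Gfap library of that group (-0.46, adjusted p = 0.0301).

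Counted over the members, LDL gave 2 higher and 1 lower in WT (6.67% of all genes higher, 7.58% lower), 1 higher and 3 lower in Dnmt3aKO (6.41% and 8.96%), 2 higher and 3 lower in Tet2KO (8.59% and 8.21%), and 1 higher and 4 lower in Jak2VF (8.44% and 9.72%).

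**Figure D3:**
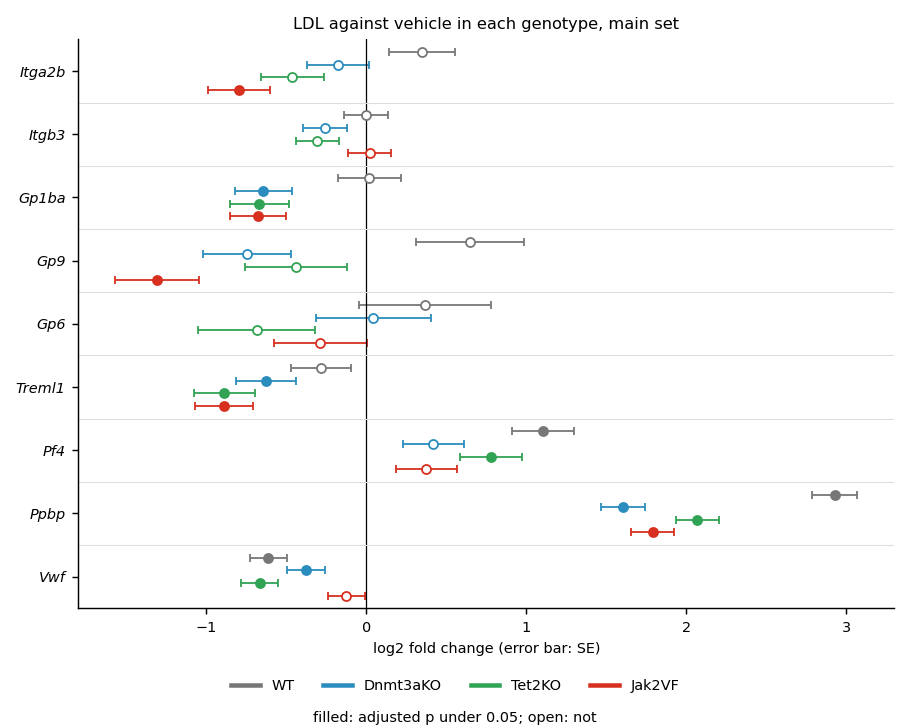
Log2 fold change of LDL against vehicle (horizontal axis) for each member in the 4 genotypes, with SE as error bars and filled points for adjusted p under 0.05. Ppbp lies between 1.61 and 2.93 in all genotypes, and Gp9 in Jak2VF is lowest at -1.31.

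Whether the LDL effect differed between genotypes was tested as a difference of log2 fold changes. The rise of Ppbp was smaller than in WT in Dnmt3aKO (difference -1.32, SE 0.19, adjusted p = 0.00117) and in Jak2VF (-1.14, SE 0.19, adjusted p = 0.00546), and both held in all 12 fits that left out 1 library. The Jak2VF difference was not called when only the 4 groups were fitted (adjusted p = 0.066). The LDL effect on Gp9 in Jak2VF minus that in WT was -1.96 (SE 0.43, adjusted p = 0.0218) and that on Itga2b -1.15 (SE 0.28, adjusted p = 0.0376). Each of these was called in only 5 of 12 fits that left out 1 library, with adjusted p up to 0.104 and 0.116, and neither was called when only the 4 groups were fitted (0.0824 and 0.0862). These counts compare with 0.432% of all genes for Dnmt3aKO minus WT and 2.47% for Jak2VF minus WT.

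For Tet2KO minus WT, 0 members were called by edgeR, beside 0.103% of all genes called at adjusted p under 0.05. At an unadjusted p under 0.05 there were 5 members, a looser threshold at which that share does not apply. DESeq2 called 1, Ppbp (-0.86, adjusted p = 0.00295, and 0.0672 by edgeR). For Jak2VF minus the mean of the other 3 LDL effects, edgeR called 0 members, beside 0.108% of all genes at adjusted p under 0.05. Here 4 members were at an unadjusted p under 0.05, and again that share does not apply at the looser threshold. DESeq2 called 1, Gp9 (-1.13, adjusted p = 0.0404; 0.142 by edgeR).

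Other genes of the lineage were taken from lists by role, and partners of the members are given first. Gp5 and Gp1bb, the remaining subunits of the Gp1ba receptor, were higher in vehicle-treated Jak2VF than in the mean of the others (log2 fold changes 1.77, adjusted p = 9.5e-06, and 1.36, adjusted p = 0.00233). Gp5 was at 2.62 to 4.68 CPM in those libraries and 0.283 to 0.846 CPM in WT. With LDL in Jak2VF it fell to 1.35 to 1.88 CPM (-1.17), and Gp1bb fell as well (-1.62). Fcer1g, the signalling chain of Gp6, was at -0.13 in vehicle (adjusted p = 0.567) and lower under LDL (-0.58, adjusted p = 0.0208). Itgav, the other partner of Itgb3, was at -0.33 (adjusted p = 0.0815). Cxcr2, a receptor for the Ppbp chemokine and a neutrophil gene, was at 10.2 to 12.7 CPM in vehicle-treated Jak2VF, 11.7 to 13.8 CPM in Dnmt3aKO and 2.70 to 3.76 CPM in WT (1.54 against the mean of the others, adjusted p = 5.6e-08).

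Of 16 other platelet surface receptors, 9 were higher and 2 lower in vehicle-treated Jak2VF, with 5 not called and a list median of 0.59, beside 9.36% of all genes higher and 9.78% lower. The thrombin receptor F2rl2 (1.88, adjusted p = 4.9e-07) and Pear1 (0.63, adjusted p = 2.5e-04) were among those higher, and the ADP receptor P2ry12 (-0.39, adjusted p = 0.00905) was lower. Under LDL the same comparison gave 3 higher and 1 lower of 16, beside 6.52% and 5.91% of all genes. With LDL in Jak2VF itself 7 receptors fell and 1 rose, beside 9.72% of all genes lower and 8.44% higher, with P2ry12 at the smallest adjusted p (-1.50, adjusted p = 3.1e-08), and P2ry12 fell in WT as well (-1.70, adjusted p = 2.9e-09).

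Among 12 megakaryocyte transcription factors, 5 were higher and 3 lower in vehicle-treated Jak2VF, beside 9.36% and 9.78% of all genes. Gata1 (1.62, adjusted p = 6.4e-04), which drives the lineage, was at 0.896 to 1.10 CPM in Jak2VF and 0.131 to 0.170 CPM in WT. Gfi1b (1.84, adjusted p = 0.00194) and Nfe2 (0.73, adjusted p = 0.00238) were also higher, while Fli1 (-0.34) and Tal1 (-0.39), which act in the same lineage, were lower. Nfe2 fell with LDL in Jak2VF (-0.77).

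In the same comparison, with the same shares over all genes, the 13 other granule and secreted proteins divided, with 4 higher (among them Mmrn1, a partner of factor V, at 0.98 and Cxcl5 at 0.87) and 3 lower (F13a1, the A chain of factor XIII, at -0.57). Of 15 cytoskeletal, signalling and enzyme genes 3 were higher (Tubb1, the platelet tubulin, at 1.12 and Rab27b, a granule regulator, at 1.03) and 4 lower. Ptgs1, the cyclooxygenase of platelets, rose with LDL in WT (1.24, adjusted p = 1.5e-07) and in Jak2VF (1.04, adjusted p = 1.5e-06).

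**Figure D4:**
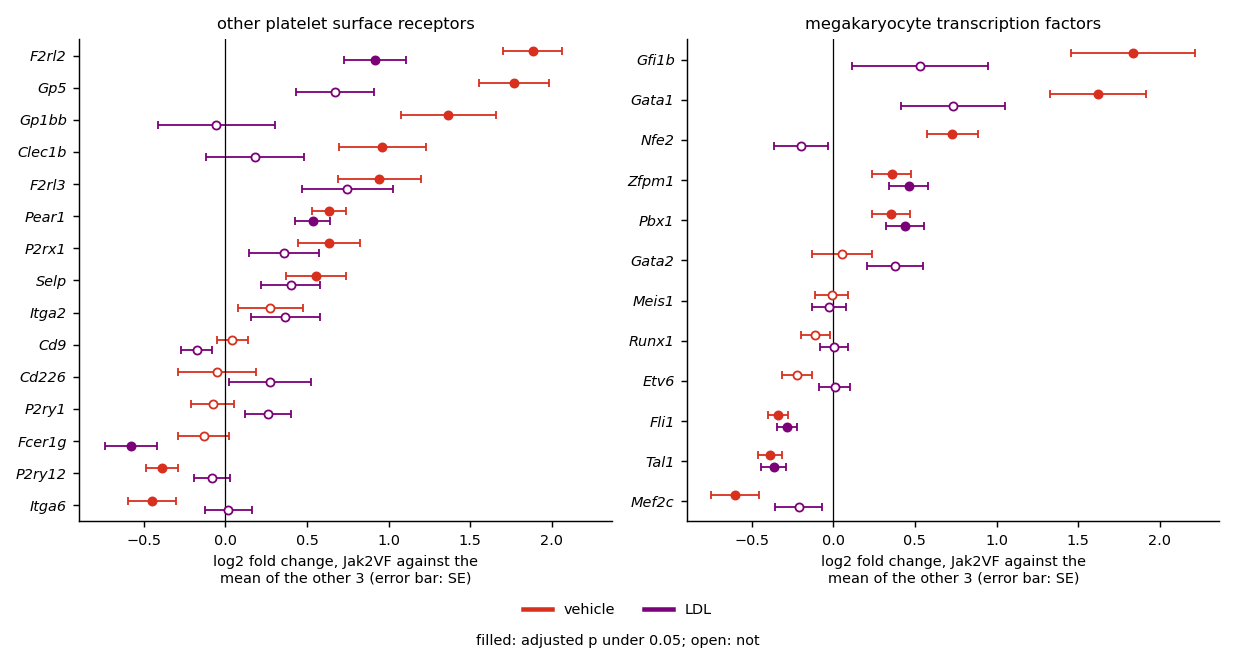
Log2 fold change of 15 of the 16 other surface receptors and 12 transcription factors in Jak2VF against the mean of the other genotypes (horizontal axis), in vehicle and LDL, with SE as error bars and filled points for adjusted p under 0.05. F2rl2 at 1.88, Gfi1b at 1.84 and Gp5 at 1.77 lie farthest right in vehicle.

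Marker lists of other marrow cells moved with the Jak2VF group as well. The summed level of 11 neutrophil genes was 524 to 697 CPM in vehicle-treated Jak2VF, 613 to 662 CPM in Dnmt3aKO, 167 to 231 CPM in WT and 38.3 to 48.3 CPM in Tet2KO, with 9 of the 11 higher in Jak2VF than in the mean of the others. In that vehicle comparison, 9.36% of all genes were higher and 9.78% lower. With LDL in Jak2VF the neutrophil sum was 309 to 366 CPM and 9 of 11 fell, beside 9.72% of all genes lower. Of 11 mast cell and basophil genes 6 had enough counts to test. Their list summed to 15.8 to 21.6 CPM in vehicle-treated Jak2VF, 13.4 to 14.0 CPM in Dnmt3aKO, 11.5 to 13.2 CPM in Tet2KO and 7.68 to 10.2 CPM in WT, and 5 were higher in Jak2VF, led by the basophil protease Prss34 (4.56, adjusted p = 5.3e-08). The mast cell proteases Mcpt4, Tpsb2, Tpsab1 and Cma1 had 0 to 4 counts in every library, and Fcer1a had 8 to 12 counts in vehicle-treated Jak2VF and 0 to 2 in the other vehicle groups.

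Erythroid genes summed to 4.15 to 6.79 CPM in vehicle-treated Jak2VF and 5.79 to 6.12 CPM in Dnmt3aKO. The sum was 2.82 to 4.24 CPM in vehicle-treated Tet2KO, overlapping Jak2VF, and 2.52 to 3.69 CPM in WT. Of 7 tested, 3 were higher in Jak2VF (Hba-a1, Hba-a2 and Hbb-bt, globins with near-identical copies between which counts can be split) and Epor was lower. Of 8 macrophage markers, 0 were higher and 4 lower. For every list here the shares over all genes were 9.36% higher and 9.78% lower. Of 9 endothelial markers, 2 were higher (Cdh5 and Tek) and 0 lower, and of the stem and progenitor list 3 were higher and 2 lower. T and NK cell genes gave 1 higher and 5 lower, B cell genes 0 higher and 6 lower, osteoclast genes 3 and 1, stromal genes 4 and 0, and neural genes 2 and 1. The part of these cell types in the member differences was not tested.

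**Figure D5:**
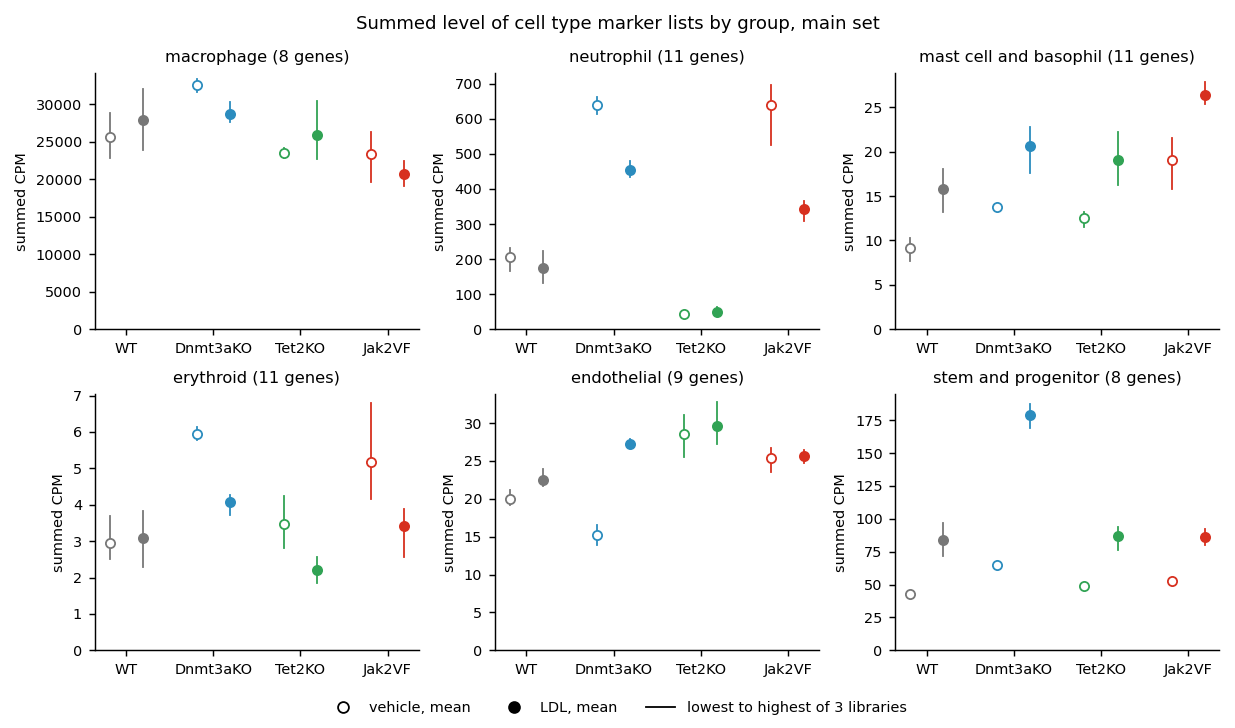
Summed CPM of marker lists of other cell types (vertical axes, each from 0) by genotype and treatment, with points at the mean of 3 libraries (open for vehicle, filled for LDL) and lines from the lowest to the highest library. The neutrophil list is high in Jak2VF and Dnmt3aKO, at 524 to 697 CPM in vehicle-treated Jak2VF against 38.3 to 48.3 CPM in Tet2KO.

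Across the 24 main libraries, the genes most like each member were named by Pearson's r of log2 levels among 12636 genes, as a description over libraries that share groups and depth. Itga2b was most like Gp5 (r = 0.94), Kcnj5 (0.93) and Mfsd2b (0.89), and Gp1ba like Kcnj5 (0.86), Tspan32 (0.85) and Itga2b (0.85). The partner chains Itga2b and Itgb3 were at r = 0.61, and Itgb3 was nearest to Kcnj15 (0.92), Sulf1 (0.88) and Ccdc8 (0.85). Ppbp was nearest to Fam63a (0.96), F3 (0.94), the tissue factor gene, and Ptgs1 (0.94). Pf4 was nearest to Myoz1 (0.94), Ifitm3 (0.93) and Fxyd2 (0.93), and stood at 0.86 to its neighbour Ppbp and at -0.36 to Itga2b. Vwf was nearest to Ncapg2 (0.93), Il33 (0.92) and Myh10 (0.91), and Treml1 to Mrgpre (0.89), Eef1a1 (0.86) and Cd300lf (0.85). Gp9 and Gp6 were below the mean of 1 CPM set for this description.

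In batch 1, which held no Jak2VF library, 0 members were called in any comparison by edgeR. Ppbp went with LDL from 24.9, 19.7 and 23.2 CPM to 44.4 and 32.7 CPM in WT (log2 fold change 0.77, SE 0.27, adjusted p = 0.916) and from 18.9, 27.0 and 33.7 CPM to 40.2 and 65.3 CPM in Tet2KO (0.99, SE 0.27, adjusted p = 0.329). In both genotypes the LDL libraries lay above the vehicle libraries. Pf4 was at 375, 220 and 246 CPM in vehicle-treated WT and 1114 and 571 CPM with LDL (1.59, SE 0.37, adjusted p = 0.502), and at 437, 967 and 789 CPM and then 1316 and 1492 CPM in Tet2KO (0.94, adjusted p = 0.589). Again no LDL library fell within its vehicle group. Of all 15481 genes tested, 0.0% were called with LDL by edgeR in WT and 0.0% in Tet2KO, with 707 and 1126 genes at an unadjusted p under 0.05 and 73 and 196 called by DESeq2. DESeq2 called Pf4 in WT (1.60, adjusted p = 0.00456) and Ppbp in Tet2KO (1.01, adjusted p = 0.031), and 2 and 3 members were at an unadjusted p under 0.05 by edgeR.

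Between genotypes in batch 1, 1.89% of genes were called in vehicle and 0.536% under LDL, both at adjusted p under 0.05. Pf4 was at 1.38 in Tet2KO against WT in vehicle (SE 0.34, adjusted p = 0.0915 by edgeR and 9.8e-04 by DESeq2), the only member at an unadjusted p under 0.05 there, and 0 members were so under LDL. Itga2b was at 27.4, 28.2 and 30.5 CPM in WT and 26.2, 32.5 and 33.2 CPM in Tet2KO in vehicle, so the groups overlapped, unlike in the main set. Itgb3 was at 35.5, 33.6 and 43.1 CPM in WT and 36.4, 27.2 and 45.4 CPM in Tet2KO, which overlapped too. Gp1ba in Tet2KO, higher than WT in the main set, was at a mean of 3.50 CPM here against 4.38 CPM in WT, also with overlap (log2 fold change -0.32, SE 0.30, adjusted p = 0.711). The sets were scaled apart, so levels are not compared between them.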

How the data were processed

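Macrophages grown from marrow were sequenced, and the labels name both ribosomal RNA depletion and poly-A selection. The deposited tables hold counts, whole numbers per gene and library that the authors made; the files are named as normalized, but the values are unscaled. Per the submitters' processing notes the build was mm10. The tools used for alignment and counting were not given in the sources used here. Counts were scaled by TMM and fitted with edgeR 4.0.16 (quasi-likelihood test, R 4.3.3) over all 24 main libraries, and apart over the 10 of batch 1. Genes needed 10 counts in 3 libraries (2 in batch 1), and p-values were adjusted over all genes tested (19444 and 15481). All 9 members passed in both sets. SE is the absolute log2 fold change over the square root of F. Permutations used log2 of CPM plus 0.5, over 9 members and 2 treatments, with p left unadjusted.

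Alternatives were DESeq2 1.42.0, its size factors, no filter, fewer groups in the fit, replicate numbers as a block, and leaving out libraries. The fit was tested on simulated data. In the main set, same-numbered libraries of the title deviated together (r over 0.1) in all 3 pairs only for Tet2KO against WT under LDL (r 0.62 to 0.815). There the block called 0 members, as the fit without it did. With 2 pairs each, both did so for LDL in batch 1 WT (title, r 0.161 and 0.275). By the description's number, both pairs did so for LDL in main-set WT (r 0.209 and 0.712) and for Tet2KO against WT under LDL. No pair of libraries was identical. Members and lists were chosen with earlier results of these data known. All members are named for Jak2VF against the mean of the others in vehicle and under LDL. In the other comparisons the members called are named, with only some of those not called. Of the other lists, genes called in Jak2VF against the mean of the others, or with LDL in Jak2VF or WT, were named, at most 8 per comparison by adjusted p, plus partners of members and the 3 most similar genes. Values of 1 listed surface receptor are not reported here.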

Additional observations from a re-analysis of the deposited data

Results flagged for a closer look

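In 4 cases the LDL effect on a member differed between genotypes by a test of the difference itself. The LDL effect on Ppbp in Dnmt3aKO minus that in WT was -1.32 (log2, SE 0.19, adjusted p = 0.00117), with log2 fold changes of 1.61 and 2.93. The same difference for Ppbp in Jak2VF was -1.14 (SE 0.19, adjusted p = 0.00546), with 1.79 in Jak2VF. For Gp9 the difference between Jak2VF and WT was -1.96 (SE 0.43, adjusted p = 0.0218), and for Itga2b it was -1.15 (SE 0.28, adjusted p = 0.0376). The latter 2 were each called in 5 of 12 fits that left out 1 library. None of the 3 Jak2VF differences was called when only the 4 groups were fitted (adjusted p = 0.066 for Ppbp, 0.0824 for Gp9 and 0.0862 for Itga2b). Of all genes, 0.432% were called for Dnmt3aKO minus WT and 2.47% for Jak2VF minus WT. These adjusted p-values are from edgeR's quasi-likelihood test with Benjamini-Hochberg adjustment.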

How the results depend on the processing

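Of the 70 member calls over all comparisons, 70 kept direction and call with DESeq2, 70 with its size factors in edgeR, 70 with the title's replicate number as a block, 64 with the description's number as a block, 64 with no count filter and 56 when only the groups compared were fitted. Without both LDL libraries that held Gfap, 20 of 29 calls were kept, and over fits that left out 1 library 421 of 504. Of 10 calls of Jak2VF against the mean of the others, 7 had an unadjusted p under 0.05 by exact permutation. No call changed sign. The counts of members called that moved by more than 1.5 times were these. Dnmt3aKO against WT under LDL went from 5 to 3 with only the groups compared and to 3 without the Gfap libraries, and leaving out 1 library gave 2 to 4. Jak2VF against WT under LDL went from 5 to 2 in both of those settings, and leaving out 1 library gave 2 to 5. Jak2VF against Tet2KO under LDL went from 3 to 0 with only the groups compared, to 1 with the description's number as a block and to 1 without the Gfap libraries, and leaving out 1 library gave 0 to 2. Jak2VF against Dnmt3aKO went from 3 to 5 under LDL with only the groups compared, and in vehicle from 5 to between 3 and 5 when leaving out 1 library. The alternatives for Jak2VF against Dnmt3aKO and Tet2KO were chosen after seeing the data. Leaving out 1 library gave 2 to 5 (in place of 4) for Jak2VF against the mean of the others under LDL, 1 to 4 (in place of 4) for LDL in Dnmt3aKO, and 1 to 2 (in place of 1) for the Dnmt3aKO minus WT difference in LDL effect. The Jak2VF minus WT difference went from 3 to 0 with only the groups compared, and from 1 to 5 when leaving out 1 library. The Jak2VF difference from the mean of the others went from 0 to 1 with DESeq2, to 2 with no count filter, and to between 0 and 4 when leaving out 1 library. The Tet2KO minus WT difference went from 0 to 1 with DESeq2, to 1 with no count filter, and to 1 with the replicate block, where Ppbp was at -0.87 (adjusted p = 0.0306, in place of 0.0672). In each other comparison with 3 same-numbered pairs, at least 1 pair did not deviate together, so a pairing by number is not shown there. Single pairs still reached r 0.755 (Jak2VF against WT in vehicle). In batch 1, DESeq2 gave 1 in place of 0 for LDL in WT, 1 for LDL in Tet2KO and 1 for Tet2KO against WT in vehicle, where leaving out 1 library gave 0 to 1. The cause of these shifts was not tested. The 6 members higher in vehicle-treated Jak2VF and the 5 called with LDL in Jak2VF had the same count in every fit that left out 1 library. Depth limits Gp6, at 4 to 39 counts, most.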
